A study of Mus musculus with 80 samples.

Results

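The reporters described here are those whose RNA share stayed well above their DNA share at the highest doxycycline (dox) dose, 100 ng/ml, in the cells of 4 pools. For each library, LR is the log2 of a reporter's share of the RNA counts over its share of the DNA counts, with 1 count added to each. Reporters with 10 or more DNA counts in all 8 DNA libraries of their pool were kept, 10785 of 10903. Members were chosen by their LR at dox 100: a kept reporter is called strong here when that LR was 2 or more in both replicates, a share of RNA at least 4 times its share of DNA. This gave 450 strong reporters (4.17%), with 86 of 2241 in pool A (3.84%), 104 of 2263 in pool B (4.60%), 130 of 3127 in pool C (4.16%) and 130 of 3154 in pool D (4.12%). A further 258 reporters passed in 1 replicate only and count among the other reporters.

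The study placed many barcoded copies of 1 reporter across the genome of mouse embryonic stem cells of the line EBRTcH3, which carries the tetracycline-controlled transactivator (tTA), and read barcodes in RNA and genomic DNA. All groups share the line and the tTA allele: within a pool, cells at dox 0, dox 0.01, dox 0.1 and dox 100 (ng/ml) differ in dose alone. Each pool had been divided into 2 cultures grown apart, which are the replicates at every dose, and cells were harvested after 72 h at a dose. The labels call these technical replicates, so the p-values given below reflect how far cultures of 1 pool and their libraries vary. Transfected cells had been sorted for low eGFP before the pools were made, so integrations in cells with high eGFP at that step are not represented. The titles and the plasmid name a tet-Off reporter while the protocols also mention an mPGK promoter, and the titles were followed.

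In a tet-Off system tTA binds operator sites in the reporter's promoter and recruits the transcription machinery. Dox binds tTA and releases it from the operator, so a high dose leaves the minimal promoter without its activator. RNA made under dox then depends on what else acts on the integration site, such as nearby enhancers and promoters or the state of the local chromatin. The piggyBac transposon, which carried the reporters, is known to insert at TTAA sites and more often in open, gene-rich chromatin. In this assay, known as TRIP, the barcode in the transcript tells which integration an RNA came from, and the DNA count corrects for how common that integration is in the pool.

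The barcodes of the 6 strong reporters with the highest mean LR at dox 100 are given because every value below is a count of such a tag. Each line has the pool, the mm9 position and strand as deposited, and the barcode from the deposited table, 5′ to 3′, with all of its bases in capitals as each of them is part of the tag.
Pool D, chromosome 5 at 104151951, minus strand: ATTTTCTAGCAGTCTT
Pool D, chromosome 5 at 104127348, minus strand: ACTAGGTGCATAAAAC
Pool C, chromosome 13 at 21842010, minus strand: AACAAATGGTAGCGAA
Pool B, chromosome 4 at 141628134, plus strand: GTTTCTCCCGACGTAC
Pool A, chromosome 17 at 37120992, plus strand: GAACGCTATCATTGAC
Pool A, chromosome 12 at 87814637, minus strand: AATTAATTCTCTGGCA

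Most barcodes were 16 bases long, 442 of the 450 among strong reporters. No strong reporter had a second barcode of its own pool within 2 substitutions. The barcodes of 26 strong reporters also occurred in another pool, on 28 reporters at other positions (0 of them within 1 Mb on the same chromosome). No share over all reporters was set beside these barcode counts. Of those 28 reporters 0 were strong, 13 had no RNA count in either replicate at dox 100, and their median LR there was −6.13. Over all reporters that were not strong, 50.5% had no RNA in either replicate and the median LR was −6.38, so these 28 lay near the background.

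RNA libraries held 729108 to 1840870 counts over the kept reporters and DNA libraries held 923846 to 1571280. These are PCR reads with no molecular identifiers, so the depth speaks to counting error only. Every strong reporter had RNA in every library. Their RNA counts ran from 45 through a median of 1081 to 17504 at dox 0. At dox 0.01 they ran from 17 through 1353.5 to 25308, at dox 0.1 from 22 through 2769.5 to 110624, and at dox 100 from 81 through 3351 to 194210.

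The 450 strong reporters held a growing share of the RNA as the dose went up, while their share of the DNA stayed near 4%. They held 12.7% ± 1.34 of the RNA counts at dox 0, 18.2% ± 1.78 at dox 0.01, 50.1% ± 2.74 at dox 0.1 and 70.2% ± 0.529 at dox 100 (SD, n = 4 pools). Single RNA libraries ranged from 10.8% to 13.9% at dox 0, 15.7% to 19.8% at dox 0.01, 45.8% to 52.8% at dox 0.1 and 69.3% to 70.9% at dox 100. The ranges of the 8 libraries of each dose did not overlap those of any other dose. Their DNA share was 4.03% ± 0.300 at dox 0, 4.11% ± 0.254 at dox 0.01, 4.02% ± 0.374 at dox 0.1 and 3.87% ± 0.248 at dox 100. The values at dox 100 follow in part from the rule that chose the reporters and are a description.

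**Figure D1:**
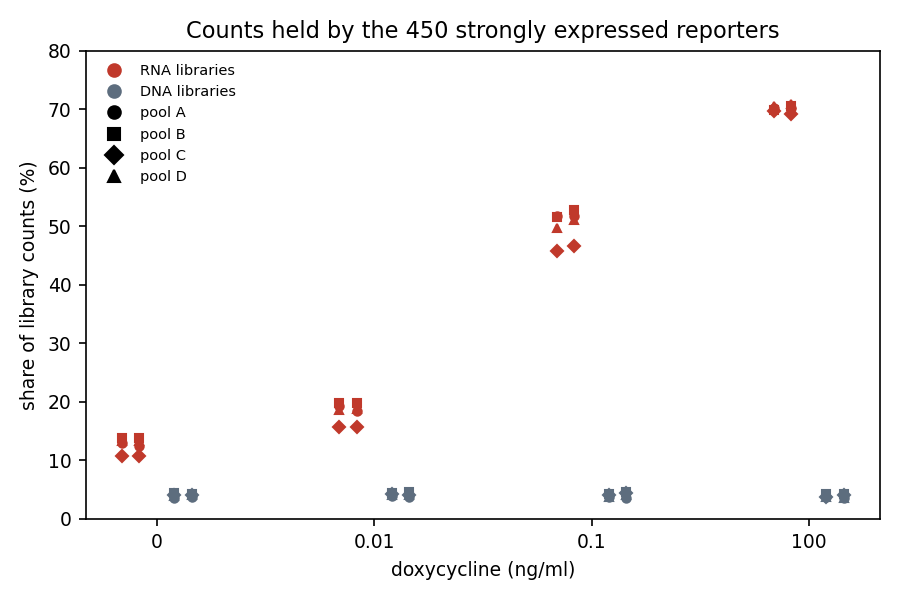
Share of the library counts held by the 450 strong reporters, in percent, for the RNA libraries (red) and the DNA libraries (grey) at each dox dose in ng/ml. Each point is 1 library and marker shapes are the pools. The RNA points lie between 69.3% and 70.9% at dox 100 and between 10.8% and 13.9% at dox 0, and the DNA points stay near 4%.

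Strong reporters already lay above the rest without dox, and the gap widened over the 3 lower doses. The levels at dox 100 chose the set and are given as a description. Their pool-median LR was 1.41 ± 0.25 at dox 0, 1.88 ± 0.13 at dox 0.01, 3.30 ± 0.19 at dox 0.1 and 3.62 ± 0.15 at dox 100 (SD, n = 4 pools). That of the other reporters was −0.89 ± 0.05 at dox 0, −1.28 ± 0.04 at dox 0.01, −3.30 ± 0.08 at dox 0.1 and −6.41 ± 0.32 at dox 100. The difference, strong minus other, was 2.30 ± 0.22, 3.16 ± 0.09, 6.59 ± 0.24 and 10.04 ± 0.34 at these 4 doses, and the medians of the pools did not overlap between the sets at dox 0, 0.01 or 0.1. At dox 100 the median of the strong reporters was highest in pool C, at 3.82, and lowest in pool B, at 3.47. At dox 0 it was lowest in pool C, at 1.08, and 1.61 in pool A, 1.35 in pool B and 1.60 in pool D. LR divides by library totals, so it cannot show a fall that all reporters share, and a rise in LR is a rise in share.

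Among themselves the strong reporters covered a wide range of levels. At dox 0 their LR, averaged over the replicates, ran from −2.35 to 5.34 with quartiles of 0.58 and 2.28. At dox 0.1 it ran from −0.57 to 6.77, with quartiles of 2.18 and 4.18. At dox 100, where the rule set the lower end, it ran from 2.06 to 8.37 with quartiles of 2.85 and 4.65. The SD over strong reporters changed little with dose, 1.30 at dox 0, 1.33 at dox 0.01, 1.41 at dox 0.1 and 1.21 at dox 100. Over the other reporters it was 2.01, 2.30, 3.20 and 3.28 at the same doses. The median absolute difference between the replicates was 0.45, 0.48, 0.50 and 0.50 for strong reporters, and 0.52, 0.56, 0.95 and 0.85 for the others. At dox 100 this difference is set in part by the rule, which asked both replicates to pass.

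**Figure D2:**
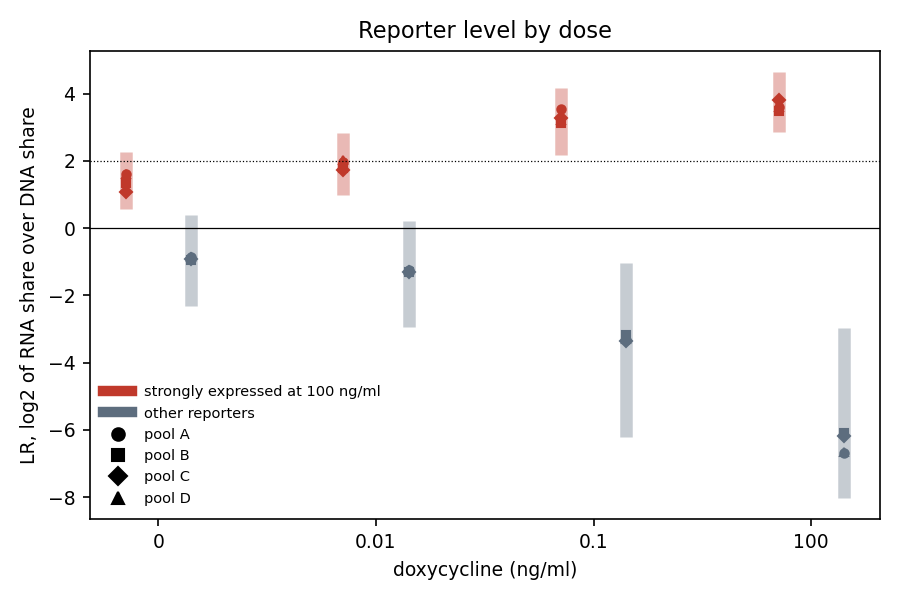
LR, the log2 of RNA share over DNA share, by dox dose in ng/ml, for strong reporters (red, left) and the other reporters (grey, right). Bars span the middle 50% of reporters and points are the medians of the 4 pools. The dotted line is the threshold of 2 used at dox 100. The pool medians of strong reporters average 1.41, 1.88, 3.30 and 3.62 over the doses, and those of the others −0.89, −1.28, −3.30 and −6.41.

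Low DNA counts raise LR, so DNA abundance is given beside the levels. Strong reporters had median DNA counts, as CPM, of 273 ± 52.6 at dox 0, 289 ± 60.6 at dox 0.01, 292 ± 45.2 at dox 0.1 and 268 ± 47.6 at dox 100 (SD, n = 4 pools). The other reporters had 294 ± 48.4, 295 ± 50.8, 294 ± 47.3 and 298 ± 51.7 at these doses. The ratio of the medians per pool lay between 0.90 and 1.05 at the 3 lower doses, and between 0.87 and 0.91 at dox 100, whose DNA counts entered the rule. The lowest DNA count was under 30 in 39 strong reporters (8.67%) and in 6.80% of the others.

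The reporters at the top of the range at dox 100 were spread over 5 chromosomes and all 4 pools. In pool D, the reporter on chromosome 5 at 104151951 had RNA counts of 1244 and 1314 at dox 0, 2446 and 1912 at dox 0.01, 14326 and 11621 at dox 0.1, and 20065 and 22045 at dox 100. Its mean LR was 2.17, 4.06, 6.22 and 8.37 at these doses, with only 32 and 80 DNA counts at dox 100. Its RNA counts went up with each dose and did not overlap between any doses.

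The second reporter of pool D on chromosome 5, at 104127348, had RNA counts of 3207 and 3230 at dox 0, 5827 and 4242 at dox 0.01, 19875 and 15761 at dox 0.1, and 13929 and 17649 at dox 100. Its LR at dox 100 was 5.94 in replicate 1 and 10.05 in replicate 2, where the DNA counts were 177 and 13. Replicate 2 sets its rank, and its RNA was no higher at dox 100 than at dox 0.1.

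Pool C's reporter on chromosome 13 at 21842010 had RNA counts of 1274 and 1565 at dox 0, 1881 and 2274 at dox 0.01, 12966 and 10333 at dox 0.1, and 51583 and 43959 at dox 100. Its DNA counts were 247 and 354 at dox 100, and its mean LR was 1.29, 2.01, 4.93 and 7.44 over the 4 doses. Of the 6 it had the lowest level at dox 0, and its RNA counts did not overlap between any doses.

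In pool A, the reporter on chromosome 12 at 87814637 took the largest share of an RNA library of any reporter. It gave 4934 and 5578 RNA counts at dox 0, 11035 and 12568 at dox 0.01, 100025 and 110624 at dox 0.1, and 166106 and 194210 at dox 100. At dox 100 these were 13.4% and 14.3% of all counts of their libraries. Its DNA counts were high too, 1295 and 1315 at dox 100, and its mean LR was 1.40, 2.62, 6.00 and 7.21. The counts of its 2 replicates lay apart from those of every other dose.

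Pool A's reporter on chromosome 17 at 37120992 had a mean LR of 3.23, 3.82, 6.55 and 7.27 from dox 0 to dox 100. The reporter of pool B on chromosome 4 at 141628134 had 3.10, 3.51, 6.27 and 7.42. It lay 154 bp from a strong reporter of pool C at 141627980, on the same strand, whose mean LR was 1.68, 2.29, 6.14 and 6.94. Reporters of separate pools at this site thus had levels that differed by 0.48 at dox 100 and by 1.42 at dox 0.

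At the threshold the values formed no gap. The strong reporters nearest to it had a lower LR of 2.009 in pool D on chromosome 14 at 76889551 and of 2.015 in pool D on chromosome 13 at 115018918. The nearest reporters outside had a lower LR of 1.998 in pool D on chromosome 19 at 58793821 and of 1.997 in pool C on chromosome 6 at 135626660.

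Levels without dox were then set beside membership, since the dox 0 libraries took no part in the rule on RNA. Strong reporters were most common among those already highest at dox 0. Of the 450, 212 (47.1%) were in the top 10% of their pool at dox 0, and 25 (5.56%) lay below their pool's median. An LR below 0 at dox 0 was found for 65 of them (14.4%). In the 10 bands of 10% of each pool, from lowest to highest, the percentage of reporters that were strong was 0, 0, 0.278, 0.742, 1.30, 1.95, 3.71, 6.12, 7.98 and 19.6. In the top 10% the pools ranged from 17.6% to 20.9%. Of the 1081 reporters in that band, 869 were not strong at dox 100.

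**Figure D3:**
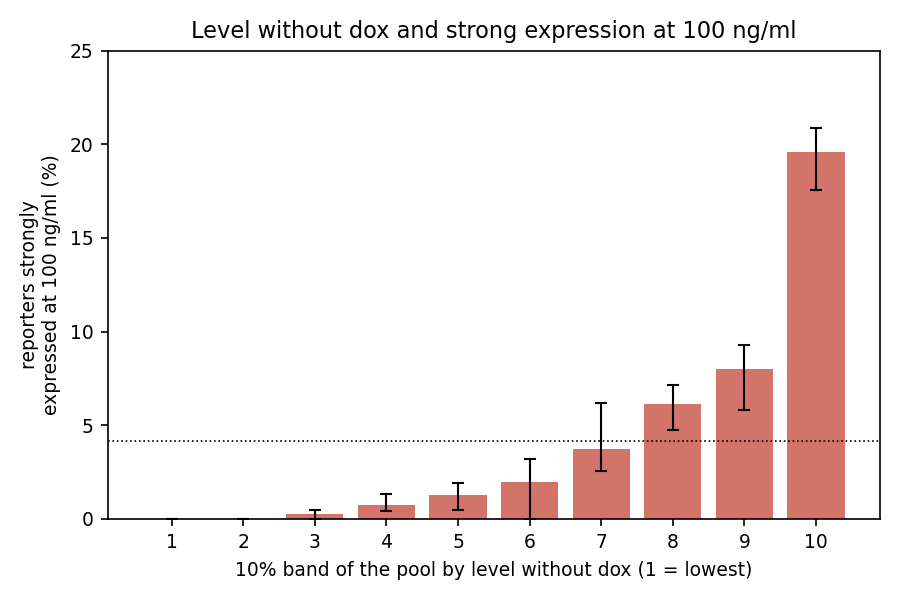
Percentage of reporters that were strong at dox 100, by 10% band of their pool when ranked by LR at dox 0 (1 is the lowest). Bars are all pools together, whiskers run from the lowest to the highest pool, and the dotted line is the 4.17% of all reporters. The top band stands at 19.6% and the lowest bands at 0.

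Within the top 10%, strong reporters lay a little above the others at dox 0, and the sets parted at dox 0.01 and dox 0.1. Levels at dox 100 chose the strong reporters and are given as a description. The 212 strong ones had pool-median LR of 2.33 ± 0.06 at dox 0, 2.84 ± 0.08 at dox 0.01, 3.93 ± 0.11 at dox 0.1 and 4.10 ± 0.28 at dox 100 (SD, n = 4 pools). The 869 others had 2.04 ± 0.01, 1.90 ± 0.05, 0.61 ± 0.24 and −2.37 ± 0.56, and 24.1% of them had no RNA count in either replicate at dox 100. The median change in LR from dox 0 to dox 0.1 was positive for the strong reporters in each of the 8 bands that held any, between 1.62 in the top band and 3.21 in the fourth. For the others it was negative in all 10 bands, between −3.50 and −1.63.

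A threshold of LR 2 in both replicates was also applied at the lower doses. At dox 0, 386 reporters passed it, of which 110 were strong at dox 100, 28.5% of the 386 and 24.4% of the 450. At dox 0.01, 490 passed and 172 were strong (35.1% of the 490, 38.2% of the 450). At dox 0.1, 524 passed and 326 were strong (62.2% of the 524, 72.4% of the 450). The set at dox 100 thus shared more with the set at dox 0.1 than with that at dox 0. The reporters that passed at dox 0 without being strong, 276 in all, had a median LR of −1.67 at dox 100, and those that passed at dox 0.1, 198 in all, had 0.95.

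The extremes at dox 0 show both kinds of course. The lowest at dox 0 was the reporter of pool D on chromosome 16 at 64886303, with RNA counts of 145 and 174 at dox 0, 247 and 188 at dox 0.01, 1133 and 1034 at dox 0.1, and 1951 and 1576 at dox 100. Its mean LR was −2.35, −1.65, 0.81 and 2.11 over the 4 doses, and its counts at dox 0.1 and dox 100 lay above all those at the lower doses. The next lowest, on chromosome 15 at 79913601 in pool C, chromosome 8 at 120969978 in pool A and chromosome 2 at 170065365 in pool D, had mean LR of −2.21, −2.05 and −1.69 at dox 0. At dox 0.1 they had 0.91, 1.24 and 2.08, and all 3 were past the threshold at dox 100.

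The 4 that were highest at dox 0 followed other courses. In pool D, the one on chromosome 7 at 26034775 had RNA counts of 5246 and 5694 at dox 0, 6799 and 4876 at dox 0.01, 5908 and 3936 at dox 0.1, and 775 and 496 at dox 100. Its mean LR was 5.34, 5.23, 6.01 and 3.81, and its dox 100 counts lay below all others. The reporter of pool B on chromosome 7 at 4971289 had a mean LR of 4.91 at dox 0, 2.33 at dox 0.1 and 3.61 at dox 100. Its LR at dox 0 was 3.65 in replicate 1 and 6.18 in replicate 2, on 248 and 48 DNA counts, so its place among the 4 rests on replicate 2. Pool C on chromosome 19 at 46574024 gave 4.74, 5.38 and 4.06 at those doses, and pool A on chromosome 8 at 93429348 gave 5.07, 3.63 and 5.02. The replicates of this pool A reporter had LR of 5.88 and 4.25 at dox 0, on 21 and 76 DNA counts. At dox 100 they had 5.87 and 4.17, on 35 and 94 DNA counts. Both replicates at dox 100 lay below both at dox 0 in LR for the reporters of pools D and C, and they overlapped for those of pools B and A.

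The change between the lower doses was tested with edgeR's quasi-likelihood test on the 12 libraries of each pool at dox 0, 0.01 and 0.1, as the interaction of assay and dose, so the dox 100 libraries that chose the reporters were left out. Its log2 change is scaled by TMM, which rests on the middle of the reporters rather than the library totals. In LR, the median change at dox 0.1 against dox 0 was 1.84 for strong reporters and −2.31 for the others. The log2 change was a larger rise for strong reporters and a smaller fall for the others. It too is relative and cannot show a fall that all reporters share, so rose and fell below are relative to the scaling. At dox 0.1 against dox 0, 403 of the 450 strong reporters (89.6%) rose past an adjusted p of 0.05 and 0 fell, against 12.2% of all 10785 reporters that rose and 25.1% that fell. By pool, 77 of 86 rose in pool A, 95 of 104 in pool B, 116 of 130 in pool C and 115 of 130 in pool D. Their median log2 change was 3.13 (range −0.92 to 6.74), against −0.70 for all reporters. The pool medians were 3.13 ± 0.10 for strong reporters and −0.83 ± 0.07 for the others (SD, n = 4 pools).

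The size and the counts depended on the scaling. With library totals in place of TMM the median of the strong reporters was 1.87 and that of all reporters −1.95, and 308 strong reporters were higher, against 5.55% of all, and 3 lower. With DESeq2's size factors the medians were 3.03 and −0.80, and 398 were higher, against 11.7% of all, and 0 lower. Relative to the median of all reporters, strong reporters were 3.83 higher under each of these scalings. Among all calls, 32.7% were higher with TMM, 30.9% with DESeq2's size factors and 10.5% with library totals.

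The largest rise past the threshold was that of the reporter of pool C on chromosome 2 at 20589063. It had RNA counts of 345 and 371 at dox 0, 782 and 762 at dox 0.01, 8790 and 7580 at dox 0.1, and 21677 and 18901 at dox 100. Its DNA counts lay between 76 and 178 in all libraries, and its log2 change at dox 0.1 against dox 0 was 6.74 (SE 0.26, adjusted p = 2.61e-08, edgeR). Its counts did not overlap between any doses, and its neighbour 5892 bp away in the same pool, at 20594955, rose by 6.38 (SE 0.80, adjusted p = 0.000132, edgeR). Pool B's reporter on chromosome 3 at 133178175 rose by 6.45 (SE 0.47, adjusted p = 1.18e-05, edgeR), with RNA counts of 10141 and 8950 at dox 0.1 against 751 and 680 at dox 0.

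The levels of those that rose and those that did not pass are given as a description, since the call rests on the same libraries and the values at dox 100 chose the set. The 403 that rose had median LR of 1.30 at dox 0, 3.36 at dox 0.1 and 3.71 at dox 100, and a median log2 change of 3.29 at dox 0.1 against dox 0. The 47 that did not pass had median LR of 2.32, 2.07 and 2.94 at those doses and a median log2 change of 1.23 (range −0.92 to 3.01).

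Most of the change fell between dox 0.01 and dox 0.1. At dox 0.1 against dox 0.01, 360 strong reporters (80%) rose and 0 fell by edgeR, against 8.51% and 20.3% of all reporters, with a median log2 change of 2.39 against −0.64 for all. With library totals 247 rose, against 3.84% of all reporters, and 3 fell, and the share of all calls that were higher was 8.96%, against 29.5% with TMM. The largest rises were those of pool C on chromosome 2 at 20589063 (5.81, SE 0.26, adjusted p = 1.11e-07), chromosome 4 at 55491383 (5.34, SE 0.67, adjusted p = 0.00029) and chromosome 4 at 141627980 (4.80, SE 0.31, adjusted p = 4.81e-06). The last of these had RNA counts of 9482 and 5526 at dox 0.1 against 1893 and 1680 at dox 0.01.

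Few reporters passed at dox 0.01 against dox 0. Among strong reporters 7 rose, 2 in pool A and 5 in pool C, and 0 fell by edgeR, against 0.102% of all reporters that rose (11 in all) and 0 that fell. At an unadjusted p under 0.05, 171 strong reporters were higher, against 4.93% of all reporters, and DESeq2's Wald test called 55 higher, against 0.983% of all. With the replicate number as a block 2 passed, against 0.0371% of all, and leaving out 1 replicate left 0 or 1 strong reporter and no other. The median log2 change was 0.77 for strong reporters and −0.05 for all, which was −0.33 for all with library totals.

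The largest of these 7 rises was that of pool C on chromosome 1 at 168056327 (4.04, SE 0.47, adjusted p = 0.0057, edgeR), over alternatives with adjusted p from 2.11e-12 to 0.469. It had RNA counts of 1235 and 1002 at dox 0.01 against 466 and 509 at dox 0, and DNA counts of 36 and 25 at dox 0.01 against 190 and 152 at dox 0. Its DNA counts were lower and its RNA counts higher at dox 0.01, without overlap, and the part of the DNA in the change was not tested. In pool A, chromosome 17 at 81202701 rose by 2.20 (SE 0.31) and chromosome 4 at 3761472 by 1.81 (SE 0.26), both with an adjusted p of 0.0408 by edgeR. Their adjusted p reached 0.699 in the alternatives, of which 7 ended each call.

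The replicate values of LR were also compared directly. Both LR values at dox 0.1 lay above both at dox 0 in 374 strong reporters, against 10% of all reporters. For dox 0.1 against dox 0.01 they did in 344, against 8.8% of all, and for dox 0.01 against dox 0 in 206, against 12.3% of all. LR went up at both steps, dox 0 to 0.01 and 0.01 to 0.1, in both replicates in 212 strong reporters (47.1%) and in 459 of all reporters (4.26%).

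In LR, the median step was 0.49 ± 0.07 for dox 0.01 against dox 0 and 1.39 ± 0.05 for dox 0.1 against dox 0.01 (SD, n = 4 pools). The other reporters changed by −0.37 ± 0.01 and −1.88 ± 0.15 at these steps. From dox 0.1 to dox 100 the strong reporters changed by 0.65 ± 0.08, a value that the rule used and that is a description. At this last step 256 strong reporters (56.9%) went up in both replicates, against 17.7% of all reporters, and 76 went down in both, against 49.4% of all.

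Strong reporters were found on every chromosome except Y, which held 6 kept reporters. The highest shares were on chromosome 19, with 23 of 304 (7.57%), chromosome 17, with 27 of 450 (6.00%), and chromosome 7, with 31 of 532 (5.83%), against 4.17% over all. Chromosome 19 had 6.12%, 9.59%, 7.45% and 6.82% in pools A to D, and chromosome 17 had 5.75%, 6.90%, 6.11% and 5.52%. Both lay above the pool's own share in all 4 pools, as did chromosome 4 (34 of 645, 5.27%) and chromosome 11 (33 of 649, 5.08%).

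The lowest shares were on chromosome 10, with 14 of 594 (2.36%), chromosome 13, with 14 of 541 (2.59%), and chromosome 3, with 17 of 628 (2.71%). These 3 and chromosome 6 (22 of 626, 3.51%) lay below the pool's own share in all 4 pools. Pools varied within a chromosome: chromosome 10 had 1.72% to 2.99%, chromosome 13 had 2.41% to 2.70%, and chromosome X, with 10 of 203 (4.93%), had 2.27% to 8.89%. Reporters of a chromosome are not independent, since strong ones lay close together, and no test was made.

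The other reporters of chromosomes 19, 17 and 7 had median LR of −0.43, −0.70 and −0.56 at dox 0, those of chromosomes 10, 13 and 3 had −0.98, −1.17 and −1.33, and the part of this level in the shares was not tested. Within the strong set, the median LR at dox 0 was 1.21 on chromosome 19 and 2.07 on chromosome 3.

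**Figure D4:**
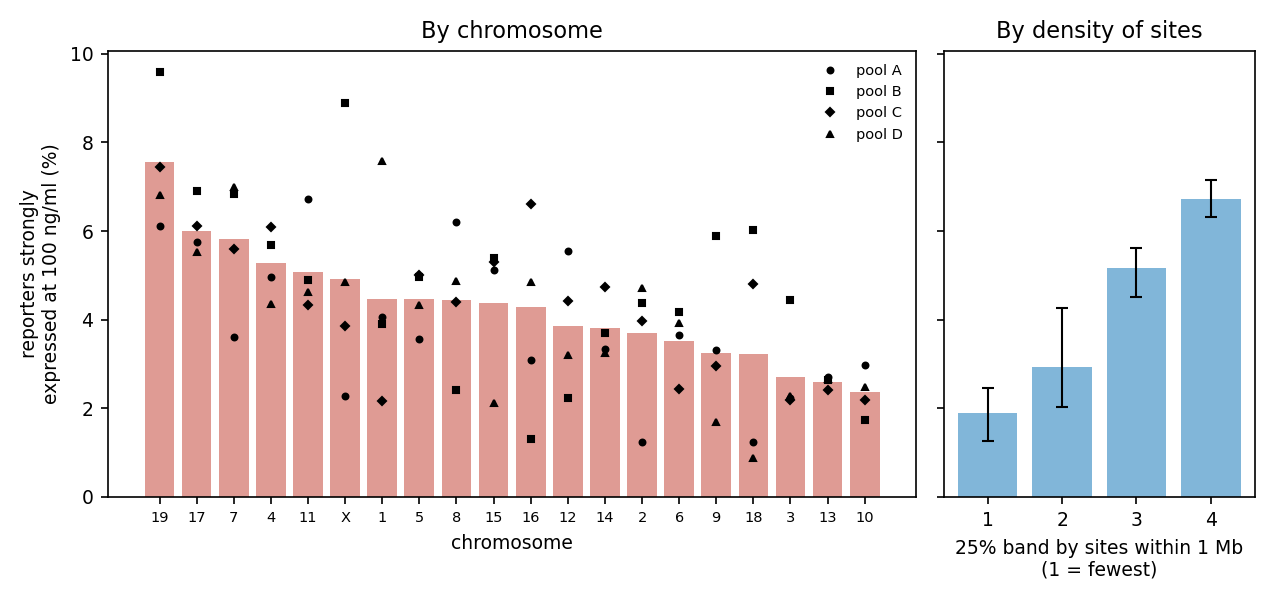
Percentage of reporters that were strong at dox 100, by chromosome (left, ordered by the share, with the pools as points) and by 25% band of the reporters when ranked by the number of other sites within 1 Mb (right, whiskers from the lowest to the highest pool). Bars are all pools together. The left panel runs from 7.57% on chromosome 19 to 2.36% on chromosome 10, and the right panel from 1.89% to 6.71%.

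Strong reporters lay close to each other. Membership was compared across pools, since reporters of separate pools share no culture. Of the 197 reporters within 10 kb of a strong one in another pool, 97 (49.2%) were strong themselves. Of the 1524 with only other reporters of another pool that near, 72 (4.72%) were. By pool the share next to a strong reporter was 46.0% in A, 68.8% in B, 45.9% in C and 44.4% in D, against 2.98%, 7.43%, 2.94% and 5.91% next to other reporters only. The ranges of the pools did not overlap.

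The contrast became smaller with distance. At 10 to 100 kb, 129 of 543 reporters with a strong one of another pool (23.8%) were strong, against 206 of 5369 with others only (3.84%). Farther out, at 100 kb to 1 Mb, the shares were 152 of 2210 (6.88%) and 291 of 8401 (3.46%). Of all strong reporters 21.6% had a strong neighbour of another pool under 10 kb, against 0.968% of the other reporters.

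The level at dox 0 also differed with the neighbours, and the shares were therefore given by that level, in a split chosen after seeing the data. Among reporters in the top 10% at dox 0, 42 of 64 (65.6%) were strong next to a strong reporter under 10 kb and 36 of 221 (16.3%) next to others only. Among the remaining reporters the values were 55 of 133 (41.4%) and 36 of 1303 (2.76%). The share was higher next to a strong reporter in both sets. The remaining reporters still spanned bands of dox 0 level in which 0% to 7.98% were strong. The part of this level in the contrast was not tested.

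**Figure D5:**
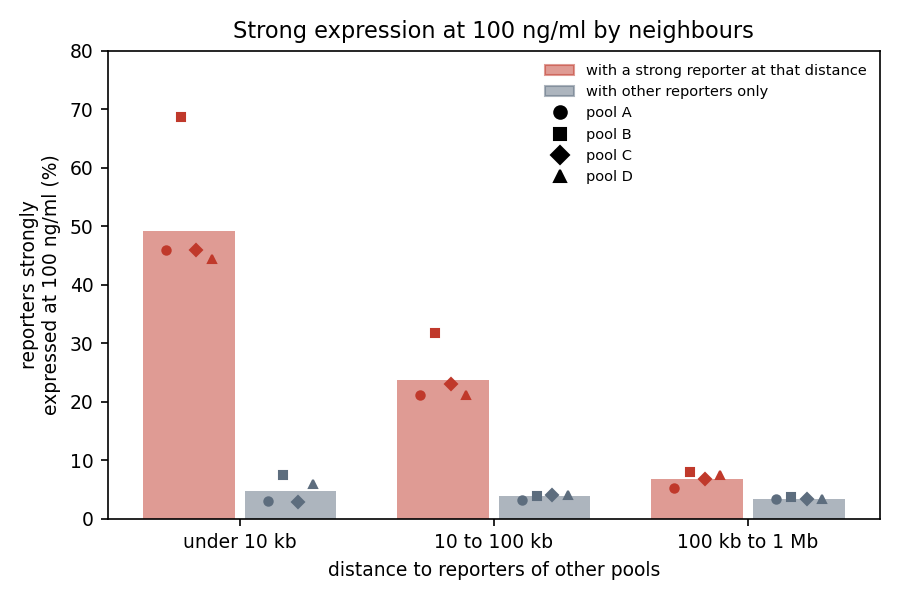
Percentage of reporters that were strong at dox 100, by distance to reporters of other pools. Red bars (left) are reporters with a strong reporter of another pool at that distance and grey bars (right) those with other reporters only, with the pools as points. The bars nearest in stand at 49.2% (red) and 4.72% (grey), the middle ones at 23.8% and 3.84%, and the outer ones at 6.88% and 3.46%.

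Levels of close strong reporters were compared across pools. There were 60 pairs of strong reporters of separate pools less than 10 kb apart, 27 of them (45%) on the same strand. Their LR differed by a median of 0.90 at dox 0, 0.93 at dox 0.01, 1.34 at dox 0.1 and 1.24 at dox 100. In the 903 pairs of other reporters at this distance the medians were 1.19, 1.30, 1.69 and 2.32, and in the 116 mixed pairs 1.59, 1.57, 2.39 and 2.99. The values at dox 100 are set in part by the rule. Strong reporters also spread less than the others at every dose, with an SD of 1.41 against 3.20 at dox 0.1. The pair medians therefore do not show that closeness made strong reporters more alike than other pairs, and this was not tested.

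Other reporters beside a strong one had intermediate levels at dox 0, dox 0.01 and dox 0.1. At dox 100 the rule placed them below the threshold in at least 1 replicate, so their levels there are a description. The 100 that lay less than 10 kb from a strong reporter of another pool had median LR of 0.41 at dox 0, 0.79 at dox 0.01, 1.09 at dox 0.1 and 0.46 at dox 100. The remaining 10235 had −0.91, −1.30, −3.34 and −6.41. No RNA count in either replicate at dox 100 was seen in 8% of the 100 and in 50.9% of the rest. The threshold had been passed in 1 replicate by 23 of the 100 and by 235 of the remaining 10235.

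Chains were formed by linking strong reporters no more than 50 kb apart. They gave 85 chains of 2 or more, with 206 strong reporters (45.8%), and left 244 alone. In 66 of the 85 chains the reporters came from 2 or more pools, and 74 had no other reporter inside. A chain starts and ends at strong reporters, so other reporters just past its ends are not counted. No background was set beside these counts. In windows of 1 Mb, 273 of the 2309 with any kept reporter held a strong one, 106 held 2 or more, and the fullest held 7.

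The chain with most members lay on chromosome 14 from 99724288 to 99754451 (30164 bp) and held 6 strong reporters, of pools A, B and C. At dox 0 their mean LR ran from 0.33 to 2.21 and at dox 0.1 from 1.87 to 5.03. At dox 100 it ran from 2.45 for the pool A reporter at 99724288 to 6.52 for the pool B reporter at 99730504, which lie 6216 bp apart on the same strand. Both had a mean LR of 1.71 at dox 0, so without dox their levels were equal to 2 decimals. At dox 100 the first gave RNA counts of 1674 and 1308, and the second 16212 and 25837, with no overlap, and their mean LR lay 4.06 apart.

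Chromosome 6 had a chain of 5 from 64972315 to 64994523, of pools B, C and D, that started low. Mean LR was −0.53 to 2.10 at dox 0, 3.09 to 4.53 at dox 0.1 and 4.42 to 5.48 at dox 100. The reporter of pool D at 64991800 had 1339 and 507 RNA counts at dox 100, where its DNA counts were 11 and 40, against 51 and 83 RNA counts at dox 0. All 5 were higher at dox 0.1 than the highest of them at dox 0.

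The chain of 5 on chromosome 5, from 104127348 to 104151951, held both of the highest reporters of pool D and had all members on the minus strand. Mean LR was 1.23 to 3.58 at dox 0, 5.16 to 6.77 at dox 0.1 and 4.79 to 8.37 at dox 100. DNA counts in this chain went down to 12 in single libraries.

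On chromosome 12, from 87809010 to 87843720, 5 strong reporters of all 4 pools included the one with the largest share of a library. Their mean LR ran from 0.31 to 3.62 at dox 0, 3.83 to 6.00 at dox 0.1 and 3.70 to 7.21 at dox 100. Its last members lay 1 bp apart on opposite strands, in pool C at 87843719 and in pool D at 87843720. Their mean LR was 0.31 and 2.46 at dox 0, 4.13 and 5.08 at dox 0.1, and 6.10 and 4.88 at dox 100, so their order turned round with dose. The reporter of pool C had 15 and 31 DNA counts at dox 100, and that of pool D 278 and 412.

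On chromosome 1, from 168056327 to 168072567, 4 strong reporters came from 4 pools, in the shortest of 3 chains with 4 each. Their mean LR ran from −1.68 to 2.06 at dox 0, 0.50 to 5.54 at dox 0.1 and 2.74 to 5.47 at dox 100. The lowest at dox 0, pool B at 168072567, gave 243 and 361 RNA counts at dox 100, against 59 and 45 at dox 0. Its nearest neighbour, pool D at 168067445, gave 45733 and 45447 at dox 100, against 5012 and 5166 at dox 0. None of these 5 chains had any other kept reporter inside, but sites past their ends do not count as inside. Beside the chain on chromosome 5, a reporter that was not strong lay 1653 bp from the strong one at 104151951.

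Pairs of a strong and another reporter also lay 1 bp apart. Of the 39 pairs of kept reporters at this distance, pairs within a pool included, all were on opposite strands. In 2 pairs both were strong, and in 3 pairs 1 was strong. The 2 pairs were that of pools C and D on chromosome 12 and a pair within pool A on chromosome 5, at 120039243 and 120039244. On chromosome 13, the strong reporter of pool D at 63383918 had a mean LR of 2.94 at dox 100, against −2.17 for that of pool B at 63383917. At dox 0 these were 1.23 and 1.07. On chromosome 4, the strong reporter of pool D at 132071612 had LR of 2.62 and 2.67 at dox 100. That of pool A at 132071611 had LR of −1.23 and −6.93 there, from RNA counts of 71 and 0, and the second value is set by the count of 1 that was added. At dox 0.1 their mean LR was 2.25 and 2.14. In the third pair, on chromosome 8, the strong reporter of pool C at 28169009 had 3.97, and that of pool D at 28169008 had 2.10 with a lower replicate of 1.94.

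Sites were denser around strong reporters. The mean number of other kept reporters within 100 kb was 3.01 ± 0.12 for strong reporters and 1.54 ± 0.04 for the others, and within 10 kb it was 0.67 ± 0.05 and 0.25 ± 0.02 (SD, n = 4 pools). The median within 1 Mb was 13.5 ± 0.577 for strong reporters and 10.5 ± 0.577 for the others. The strong reporters had a higher mean number in 4 of 4 pools at each of these distances. No other site within 100 kb was found for 11.1% of strong reporters and 32.3% of the others. The nearest kept reporter lay a median of 12204 ± 1263 bp away for strong reporters and 51118 ± 2728 bp for the others.

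In 4 equal bands of reporters ranked by the number of sites within 1 Mb, from fewest to most, 1.89%, 2.93%, 5.16% and 6.71% were strong. The pools ranged from 6.32% to 7.16% in the densest band and from 1.26% to 2.45% in the sparsest, and did not overlap. The median LR of all reporters at dox 0 was −1.97, −0.96, −0.39 and −0.07 from the sparsest band to the densest. Within the top 10% at dox 0, 97 of 420 (23.1%) were strong in the densest band and 17 of 122 (13.9%) in the sparsest. Among the remaining reporters these were 84 of 2276 (3.69%) and 34 of 2575 (1.32%).

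Some strong reporters stood alone. The farthest from any other kept reporter was that of pool D on chromosome X at 7718603, with the nearest site 1437189 bp away and a mean LR of −0.84, −0.70, 0.97 and 2.54 over the doses. Next were pool B on chromosome 7 at 51606742, 461116 bp from the nearest, and pool A on chromosome 1 at 106248270, 382189 bp from the nearest. The reporter of pool B was high at every dose, with 3.69 at dox 0.01, 4.88 at dox 0.1 and 5.01 at dox 100, whereas that of pool A had −0.62, 1.72 and 2.71.

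Strand and position along the chromosome were compared without a test. Strong reporters were on the plus strand in 52.3% ± 6.19 and the others in 49.2% ± 0.967 (SD, n = 4 pools). In the first 10 Mb lay 6.45% ± 1.63 of strong reporters and 5.10% ± 0.445 of the others, with strong reporters higher in 4 of 4 pools, by little in pools A (4.65% and 4.50%) and B (5.77% and 5.56%). In the last 10 Mb up to the farthest reporter of the chromosome lay 7.42% ± 2.41 and 9.31% ± 0.459, with strong reporters higher in pool A and lower in pools B, C and D.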

How the data were processed

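Unnormalized read counts for each barcode were deposited for 64 RNA and DNA libraries (4 pools, 4 doses, 2 replicates), with position and strand. Per the file headers, cDNA and genomic DNA counts are separate columns. Of 80 samples, 16 are mapping libraries and enter only through the positions. Bowtie2 2.0 and mm9 are named in the submitters' processing notes, and how barcodes were called is not stated there. No gene annotation was used, since the tables at hand are of another build.

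The reporters, lists and comparisons were chosen with earlier results of these data known. A reporter had to reach 10 DNA counts in all 8 DNA libraries of its pool, which removed 118. Doses were compared per pool on 12 libraries with edgeR 4.0.16 in R 4.3.3: quasi-likelihood interaction of assay and dose, TMM within assay, Benjamini-Hochberg adjustment over all reporters of a pool at 0.05. The model was tested on simulated data in which equal numbers of reporters rose and fell, so the choice of scaling was not tested. DESeq2 1.42.0, Python 3.11.15, numpy 2.4.6, pandas 2.3.3 and matplotlib 3.10.9 were also used. Each SE given is the size of the log2 change over the square root of the test's F value, since edgeR's test reports no SE. LR is a relative level, with 1 count added and library totals over kept reporters.

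Reporters named in the text are the 6 highest at dox 100, the 4 lowest and 4 highest at dox 0, the 3 with the largest called change per comparison, 2 on each side of the threshold, the members of the 5 fullest chains (ties by shorter span), the 3 closest mixed pairs and the 3 farthest from other sites. Replicate numbers mark the culture of a pool, per the labels' protocols, so they pair libraries across doses. The main edgeR fit left this pairing out, and the fit with the replicate block is an alternative. Deviations from the group means correlated across doses by −0.051 to 0.045 for DNA and −0.054 to 0.041 for RNA. Alternatives covered scaling, tool, replicate block, DNA minimum, low RNA, pseudocount, threshold, neighbour distance, all 16 libraries of a pool, and leaving out each replicate or pool.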

Additional observations from a re-analysis of the deposited data

Results flagged for a closer look

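Across 52 sets of values by pool (n = 4), 5 had a highest or lowest pool far from the other pools by Dixon's criterion, which chance passes in about 1 in 20 sets. The share of reporters that were strong next to a strong reporter under 10 kb was 68.8% in pool B, far above the other pools, on 22 of 32 reporters. Next to other reporters only, at 10 to 100 kb, it was 3.29% in pool A, below the other pools. The median number of sites within 100 kb of a strong reporter was 2 in pool C and 3 in each of the others. On chromosome 15 the share of strong reporters was 2.13% in pool D, below the other pools, on 3 of 141 reporters. On chromosome 3 it was 4.44% in pool B, above the other pools, on 6 of 135 reporters.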

How the results depend on the processing

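The count of strong reporters that rose at dox 0.01 against dox 0 (7) was 1 with DESeq2's size factors, 1 with library totals, 2 with the replicate block, 2 with all 16 libraries, 55 with DESeq2's Wald test and 0 to 1 when a replicate was left out. The block changed no other call count by over 1.5 times: 397 (dox 0.1 against dox 0) and 349 (dox 0.1 against dox 0.01). Centring LR on the pool median gave medians of 2.21 at dox 0, 3.03 at dox 0.01 and 6.15 at dox 0.1. A threshold of LR 3 chose 257 reporters. Within the top 10% at dox 0, chosen after seeing the data, the share of strong reporters was 65.6% next to a strong reporter and 16.3% next to others only. With fewer reporters, the median number of sites around a strong one was lower: within 100 kb 1.75 at a DNA minimum of 100 and 2 to 2 without a pool, and within 1 Mb 9.12 and 9.33 to 11. The other main values, 84 in all, kept their side of the threshold and moved by less than the spread of the pools or 1.5 times. For the reporters named from edgeR, 84 alternative values kept the call, 18 lost it, all at dox 0.01 against dox 0, and 0 reversed. Low DNA counts limit single LR values, and 2 technical cultures per dose limit each test.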
